A study of Homo sapiens with 102 samples.

Results

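CenU codes T094 to T110 mark 17 repeat units, consecutive in the numbering of a synthetic centromere array. Most of them were poor in CENP-A on HAC 1-20, a human artificial chromosome (HAC). T110 was not, and T103 had too few reads on this HAC to be kept. The numbering is that of the DNA put into cells. The study describes the DNA of the established HACs as rearranged against this input, so neighbouring numbers need not be neighbours on HAC 1-20, and order, step and run below refer to the numbering. The codes were chosen as a run from the CENP-A reads of untreated cells, so low CENP-A in those cells is a description and was not tested. A code was kept where its median share of CenU reads over the 49 HAC 1-20 libraries was at least 0.1%, which left 16 of the 17, of 61 CenU codes carried by HAC 1-20 and 512 codes in the count files. Of these 128 are named T, taken as CenU units, and 384 are named L, of which the 96 carried by HAC 1-20 were taken as NCU units. T102 was the carried member with the smallest median share, 0.646%, and T103, the code left out, had 0.009%. The comparison codes were the CENP-A-dense stretches before and after it in the numbering, T070 to T083 and T111 to T123, with 13 carried codes each. T072 was not carried (0.0605%) and T001 was (1.68%), and the position code list gives CenU 001 the letters that the numbering would give CenU 072, so these names may be exchanged. T001 was not among the comparison codes.

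The series held ChIP libraries of reads per position code, a short sequence that marks each repeat unit. HAC 1-20 was kept in HT1080, an established human fibrosarcoma line, as were all other HACs used here, and each HAC line grew from 1 picked colony. Antibodies to CENP-A, H3K9me3, H3K36me2, H3K4me2, H3K14ac, H4K8ac and H4K20me1 were each used in 7 conditions of HAC 1-20 cells. These were untreated cells, cells in thymidine (spelled Thymdine in the labels), cells in colcemid, cells 3 h after release from colcemid, and cells transfected with siControl, siKAT7 or siHJURP. HAC 1-8, HAC 4-2, HAC 3-6 and HAC 4-49 each gave 1 CENP-A library of untreated cells. Each group had 1 library, made from the pooled DNA of 3 ChIP reactions, so no spread between replicates could be given. Levels of KAT7 and HJURP in the siRNA-treated cells were not analysed here. Matched reads per HAC 1-20 library were 4611 to 918309, and 2 libraries had fewer than 10000, namely CENP-A in siKAT7 cells and H3K36me2 in untreated cells.

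CENP-A is the histone H3 variant that replaces H3 at active centromeres and recruits the kinetochore. CenU units carry the box bound by CENP-B, a DNA-binding protein of centromeric alphoid repeats, and NCU units carry a mutated box. H3K9me3 is bound by HP1 and marks heterochromatin, H3K36me2 is found over wide chromatin domains, and H3K4me2, H3K14ac, H4K8ac and H4K20me1 were the marks grouped with active or centromeric chromatin. HJURP is the chaperone that deposits CENP-A, and KAT7 is a histone acetyltransferase. Thymidine holds cells at the border of G1 and S phase and colcemid holds them in mitosis.

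The codes are shown because every value below is the number of reads that matched one of them. The constant letters are in lower case and those that tell codes apart in capitals, and the sequences come from the position code list of the study. The edges of the run, the code not carried with its neighbours, and members with low CENP-A are given.
T094: ggggaaaaTTcccCTtttCTggg
T095: ggggaaaaTTcccCGtttCGggg
T102: ggggaaaaTGcccTTtttTTggg
T103: ggggaaaaTGcccTGtttTGggg
T104: ggggaaaaTGcccTCtttTCggg
T107: ggggaaaaTGcccGGtttGGggg
T109: ggggaaaaTGcccCAtttCAggg
T110: ggggaaaaTGcccCTtttCTggg
Each code had 23 bases with 6 variable letters, and the last variable pair repeated the middle pair in all 17. Each member lay 1 mismatch from 4 other CenU codes, of which 2 or 3 were carried, so a read with 1 wrong letter can match another code. T103 lay 1 mismatch from T071, T087 and T119, which had median shares of 1.22%, 2.82% and 2.17%, while T103 itself did not exceed 0.137% in any of the 49 libraries. That highest share was 2 of the 1462 CenU reads of H3K9me3 in untreated cells. T103 had 454 reads in all, and over 3 reads in 35 of the 49 libraries, and their source was not tested.

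The members were not alike in CENP-A. The level of a code was taken as its log2 reads less the mean log2 reads of the 6 marks (of the remaining 5 for a mark) in the same condition, with the median over the 61 carried codes set to 0, so that the copy number of a code cancelled. A code with few reads for 1 mark is thereby raised in the level of the others. In untreated cells the CENP-A level was −0.50 to −1.64 on the 9 codes T094 to T102, −2.66 to −3.71 on the 6 codes T104 to T109 and −0.16 on T110. The step lay at the missing code T103, with −0.86 on T102 and −2.66 on T104. The 9 codes before the step are called the shoulder and the 6 after it the floor, a division made after the values were seen. T110 had a CENP-A level near the median of all carried codes and thus did not share the low CENP-A of the rest. It is kept in all values given for the members below.

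The floor was low in CENP-A in each of the 7 libraries. Its mean level was −3.20 in untreated, −2.93 in thymidine, −3.03 in colcemid, −2.86 in released, −3.26 in siControl, −3.43 in siKAT7 and −3.23 in siHJURP cells. All 6 floor codes were more than 2-fold below the median of carried codes in all 7 conditions. The share of carried codes so far below it was 26.2% in untreated cells, which chose the members, and 21.3% in thymidine, 36.1% in colcemid, 27.9% in released, 29.5% in siControl, 23% in siKAT7 and 21.3% in siHJURP cells. T107 took 0.245%, 0.119%, 0.254%, 0.149%, 0.149%, 0.202% and 0.168% of CenU reads in the CENP-A libraries, in that order of conditions. Its share stayed under that of each shoulder code in the same library. T108 had 0 reads of 3960 in siKAT7 cells, where a count of 0 allows up to 3 reads, and 46 to 189 reads in the other CENP-A libraries.

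The mean of the shoulder took 2 positions. Its CENP-A level was −1.03 in untreated, −1.36 in colcemid, −0.83 in released and −1.16 in siControl cells, and −0.06 in thymidine, −0.07 in siKAT7 and −0.16 in siHJURP cells. In the last group of libraries the shoulder thus stood close to the median of all carried codes, and the floor did not. T095 shows it with 0.788%, 0.667%, 0.934% and 0.576% of CENP-A reads on CenU in untreated, colcemid, released and siControl cells. In thymidine, siKAT7 and siHJURP cells the same code took 1.76%, 2.05% and 1.79%. T096 took 0.545%, 0.634%, 0.841% and 0.589% in the former and 2.03%, 1.44% and 1.75% in the latter. T110 went the other way, with 2.43%, 2.22%, 2.08% and 2.01% against 1.30%, 1.49% and 1.32%. T102, the last shoulder code, took 0.257%, 0.417%, 0.260% and 0.273% against 0.543%, 0.581% and 0.538%. These libraries are set side by side for their values and were not pooled, and with 1 library per condition the differences could not be tested.

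Against the dense stretches the same pattern appeared with counting intervals. For each library the mean log2(reads + 0.5) of the carried members minus that of the 26 carried domain codes was taken, a difference that holds the copy numbers of the codes but lets them cancel between antibodies or conditions. For CENP-A on all 16 members it was −2.56 (95% interval −2.61 to −2.50) in untreated, −2.06 (−2.13 to −1.99) in thymidine, −2.56 (−2.61 to −2.52) in colcemid, −2.78 (−2.83 to −2.74) in released, −2.74 (−2.81 to −2.66) in siControl, −2.26 (−2.58 to −1.94) in siKAT7 and −1.90 (−1.93 to −1.87) in siHJURP cells. Since reads were amplified by PCR and not marked as molecules, all intervals here take in the error of counting and nothing else. On the shoulder alone it ran from −2.03 to −2.14 in untreated, colcemid, released and siControl cells and was −0.65 in thymidine, −0.92 (−1.07 to −0.76) in siKAT7 and −0.72 in siHJURP cells. On the floor it was −3.67 to −4.55, with no such separation of the libraries. The depth was smallest in siKAT7 cells, where the 16 members held 540 CENP-A reads and each shoulder code 23 to 85.

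H3K9me3 and H3K36me2 were higher on the members than on the dense stretches, relative to the other marks. For H3K9me3 the members minus the domains were 1.64 (1.38 to 1.90) in untreated, 0.85 in thymidine, 1.31 in colcemid, 0.81 in released, 1.70 in siControl, 0.96 in siKAT7 and 0.72 in siHJURP cells. For H3K36me2 they were 1.49 (1.33 to 1.65), 0.30, 1.41, 0.93, 1.32, 0.33 and 0.06 in the same order. Since these values hold copy number, 0 does not mark equal levels, and they are read against the other marks. In siHJURP cells, where H3K36me2 was lowest, the mean of the 6 marks was −0.25. The mean over the 6 treated conditions was 1.06 ± 0.37 (SD, n = 6 conditions) for H3K9me3 and 0.73 ± 0.58 for H3K36me2.

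The other marks gave lower values on the same scale. H4K20me1, a methylation of histone H4 found with CENP-A nucleosomes, gave −1.52, −2.22, −0.81, −2.21, −1.70, −1.21 and −1.0. H4K8ac, a target of KAT7, gave −1.0, −0.59, −0.45, −0.87, −1.09, −1.17 and −0.65. H3K4me2 was −0.31 ± 0.25 and H3K14ac −0.57 ± 0.57 over the treated conditions. The H3K14ac mean rests on uneven libraries, as described below.

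The marks were compared in pairs over the 6 treated conditions, since the untreated libraries had chosen the codes. The treated libraries hold the same line and codes, so leaving out untreated cells does not make the comparison independent of that choice. An exact paired sign-flip permutation test, two-sided, was made for the 15 pairs of marks with Benjamini-Hochberg adjustment, and the smallest p it allows with 6 conditions is 0.03125. It passed 11 pairs, all at that p and at an adjusted p of 0.0426. A pair at that p passes after adjustment only where several pairs reach it together. H3K9me3 exceeded H4K20me1 by 2.58 ± 0.67 (SD), H4K8ac by 1.86 ± 0.53, H3K14ac by 1.63 ± 0.60 and H3K4me2 by 1.37 ± 0.43, each in 6 of 6 conditions. H3K36me2 exceeded the same marks by 2.25 ± 0.82, 1.53 ± 0.64, 1.30 ± 0.65 and 1.04 ± 0.58, again in 6 of 6. H3K4me2 exceeded H4K8ac by 0.49 ± 0.14 and H4K20me1 by 1.22 ± 0.52, and H4K8ac exceeded H4K20me1 by 0.72 ± 0.62. H3K9me3 and H3K36me2 were not told apart, with a difference of 0.33 ± 0.36 that was positive in 4 of 6 conditions (exact p = 0.125, adjusted 0.134). The pairs of H3K14ac with H3K4me2 (exact p = 0.0938), H4K8ac (0.219) and H4K20me1 (0.0625) did not pass either. The 15 pairs share libraries, and the conditions stand in for replicates. With the stretch T111 to T123 alone as the comparison no pair passed after adjustment, 9 had an unadjusted p under 0.05, and the lowest adjusted p was 0.0521. The same counts and the same lowest adjusted p were found without the 3 most scattered H3K14ac libraries (colcemid, released and siKAT7), which leaves too few conditions for the H3K14ac pairs to pass.

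H3K9me3 on the members lay above the dense stretches and below the NCU units, relative to the other marks. Measured against the 96 carried NCU codes, the members minus NCU ran from −3.72 to −1.89 for H3K9me3 over the 7 conditions and the domains minus NCU from −4.53 to −2.74. For H3K36me2 the values were 0.13 to 1.66 on the members and −1.29 to 1.06 on the domains. These values hold an offset of copy number that is the same for each antibody. H3K9me3 less the average of the remaining 5 marks, in which the offset cancels, was −1.91 to −0.77 on the members and −3.67 to −2.0 on the domains, so relative to the other marks both had less H3K9me3 than NCU units in 7 of 7 conditions. H3K36me2 less the same kind of average was 2.10 to 3.51 on the members and 1.19 to 2.67 on the domains. In H3K9me3 the name heterochromatin valley for T094 to T110 therefore holds against the dense stretches and not against NCU units.

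Along the run, the marks differed between shoulder and floor in a way that depended on the condition. In untreated cells the mean H3K9me3 level was 0.57 on the shoulder and 0.45 on the floor. The mean H3K36me2 level was 0.60 on the shoulder and 1.29 on the floor, where the lowest code was at 1.07. The mean H4K20me1 level was −0.72 on the shoulder and −2.07 on the floor, but −0.69 and −0.75 in colcemid cells. In thymidine cells H3K9me3 differed, with −0.18 on the shoulder and 1.76 on the floor, and likewise in siKAT7 cells (0.12 and 1.43) and siHJURP cells (−0.07 and 0.92). In colcemid and siControl cells it was alike on the shoulder and floor, at 0.27 and 0.18 and at 0.55 and 0.63. The levels of all marks in 1 condition sum around a shared mean, so a low H4K20me1 raises the other marks of the same code. On the floor H4K20me1 minus the domains was −2.02 in untreated and −4.42 in thymidine cells. Floor minus domains in H3K9me3 was 1.78 in untreated and 1.23 in thymidine cells, and 1.81 in siControl and 1.38 in siKAT7 cells. Over NCU it was −2.58, −1.51, −2.25 and −1.89 in that order, so the direction depended on the reference.

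All 6 floor codes were more than 2-fold above the median in H3K9me3 in thymidine and siKAT7 cells, where 21.3% and 19.7% of carried codes were so high, but 0 of 6 in untreated and colcemid cells, where 8.2% and 6.56% were. In H3K36me2 all 6 were so high in untreated and thymidine cells, beside 19.7% and 14.8% of carried codes, and 0 of 6 in siHJURP cells, beside 1.64%. H4K20me1 was over 2-fold below the median on all 6 in untreated, thymidine, siControl and siHJURP cells, beside 23%, 24.6%, 21.3% and 16.4%. In colcemid cells it was so low on 2 of 6, beside 9.84%. T108 was the floor code that varied most in H4K20me1, at 0.359% of CenU reads in untreated, 0.0282% in thymidine and 1.14% in colcemid cells. T104 had 0.542%, 0.112% and 0.488% in the same libraries and T109 0.542%, 0.117% and 1.32%. All 6 floor codes were lower in thymidine than in colcemid cells, where T104 had the lowest level (−1.82) and T109 the highest (0.32).

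Single members differed in how evenly the marks sat on them. T100 had an H3K9me3 level of 0.11 to 1.65 and an H3K36me2 level of 0.48 to 1.83. With H3K14ac, which gave few reads on T100 in 4 conditions, left out of the reference marks, an alternative chosen after the data were seen, these were 0.00 to 0.60 and 0.28 to 0.95. T110 was above the median in H3K9me3 in 7 of 7, at 0.36 to 1.70, where by construction 49.2% of carried codes lay above it in each condition, and took 2.90% to 3.90% of CenU reads in the 7 H3K9me3 libraries, while its CENP-A level was −0.75 to 0.82. The upper ends for T110, 1.70 and 0.82, were both in colcemid cells, where H3K14ac gave few reads on it. With H3K14ac left out of the reference marks they were 0.33 for H3K9me3 and 0.00 for CENP-A. Over the 7 conditions the levels of T110 were then 0.33 to 1.32 and −0.66 to 0.00. Reads are pooled over copies and cells, so these values do not tell whether both lay on the same copy. T094 and T095, the first codes of the run, had H3K9me3 shares of 2.37% to 3.30% and 2.10% to 3.19% with median H3K36me2 levels of −0.20 and −0.38. T096 and T097 had median H3K9me3 levels of −0.18 and −0.14 and median H3K36me2 levels of 0.47 and 0.71.

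Across the 16 members the CENP-A level correlated between pairs of conditions at a median r of 0.79 (0.53 to 0.92 over 21 pairs) and the H4K20me1 level at 0.63, while for H3K9me3 the median was 0.20. Within a condition the H4K20me1 level followed the CENP-A level over the 16 codes at r = 0.40 to 0.95, with a median of 0.86, and the H3K36me2 level at −0.77 to 0.34, with a median of −0.35 and values above 0 in colcemid and released cells. Between the H3K9me3 and CENP-A levels r was −0.85 to 0.56, with a median of −0.14 and values above 0 in untreated, colcemid and released cells. For H3K14ac it was −0.62 to −0.31. These are descriptions over neighbouring codes read in the same libraries and centred on the same marks. H3K14ac is itself taken off the CENP-A level, and few H3K14ac reads on a code raise its CENP-A and H3K9me3 levels together. T110 in colcemid cells was at 0.82 and 1.70, and at 0.00 and 0.33 with H3K14ac left out. In released cells 7 members had few H3K14ac reads. No r with H3K14ac left out is given here, so the signs of these r are not read further. The variable letters held 1 to 4 G or C on the shoulder and 3 to 5 on the floor. The part of base composition in these profiles was not tested, but amplification common to all libraries cancels in the level.

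From thymidine to colcemid, CENP-A on the shoulder was lower against the dense stretches. H3K36me2 on the members and H3K9me3 on the shoulder were higher against them. The shoulder minus the domains differed by −1.44 (−1.49 to −1.38) in CENP-A, while the floor differed by 0.72 (0.53 to 0.92). CENP-A was more than 2-fold lower on 8 of 16 members, all in the shoulder, beside 19.7% of carried codes (12 of 61). T096 changed most, at −1.97 with 1161 and 581 reads, followed by T095 at −1.69, and T110 stood at the other end with 0.48. H3K36me2 was over 2-fold higher on 11 of 16 members, beside 24.6%, with T108 at 1.66, T107 at 1.39 and the smallest changes on T100 (0.52) and T110 (0.82). H3K9me3 was over 2-fold higher on 1 member, T099 at 1.18, beside 3.28%, with T098 at 0.93 and T105 and T107 near 0. The H3K9me3 mean differed by 0.76 (0.70 to 0.83) on the shoulder and by 0.05 (−0.02 to 0.11) on the floor. Against the domains H4K20me1 was over 2-fold higher on 7 of 16 members, beside 21.3%. Its mean against the domains differed by 3.55 (3.42 to 3.68) on the floor and by −0.02 (−0.08 to 0.04) on the shoulder.

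Over NCU reads, which do not depend on the domains, the members and the domains can be read apart. CENP-A differed by −2.10 (−2.17 to −2.03) on the shoulder, by −0.67 on the domains and by no measurable amount on the floor (0.06, −0.14 to 0.26). H3K36me2 over NCU was −0.54 on the members and −1.65 on the domains, and H3K9me3 was −0.87 and −1.33. Both marks were thus lower over NCU on the members as well, though by less than on the domains. With all CenU reads as the reference in place of NCU the members were at 0.14 for H3K9me3 and 0.42 for H3K36me2. H4K20me1 over NCU differed by 0.37 (0.24 to 0.50) on the floor, by −3.20 on the shoulder and by −3.18 on the domains. Over all CenU reads these were 3.27, −0.30 and −0.28, so where the difference between floor and domains lay depended on the reference.

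From colcemid to 3 h after release, both marks were lower against the domains. H3K9me3 on the members differed by −0.50 (−0.56 to −0.44) and H3K36me2 by −0.48 (−0.52 to −0.45). H3K9me3 was lower on 16 of 16 members with a median of −0.48, beside a median of −0.31 over all carried codes, and 0 members passed 2-fold, as did 0% of carried codes. T101 (−0.99) and T102 (−0.90) were lowest in H3K9me3 and also in H3K36me2, at −1.06 and −1.18, the only members past 2-fold there beside 3.28% of carried codes. T100 (−0.06) and T095 (−0.08) changed least in H3K9me3, and T096 (0.07) and T100 (0.00) in H3K36me2. CENP-A differed by 0.06 (0.00 to 0.11) on the shoulder and by −0.66 on the floor, with T095 (0.50) and T096 (0.42) highest and T106 (−0.87) and T107 (−0.76) lowest. Against the domains H4K20me1 was over 2-fold lower on 11 of 16 members, beside 34.4%. Over NCU reads H3K36me2 was higher, by 0.21 (0.19 to 0.24) on the members and by 0.70 on the domains. H4K20me1 over NCU was likewise higher, by 1.02 on the members and by 2.42 on the domains. H3K9me3 over NCU differed by −0.96 and −0.46.

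From thymidine to release, CENP-A on the shoulder differed by −1.38 (−1.43 to −1.33), with 9 of 16 members past 2-fold beside 21.3%. T099 (−1.68) and T100 (−1.59) were lowest and T110 (0.39) and T101 (−0.96) highest among members with at least 100 reads in both libraries. H3K36me2 on the members was higher by 0.63 against the domains. T104 was at 1.25, T108 at 1.06 and T101 and T102 both at −0.09, so 2 members passed 2-fold beside 3.28%. Over NCU H3K36me2 was lower in released cells, at 0.34 against 0.66 on the members and −0.59 against 0.37 on the domains. H3K9me3 on the members differed by −0.04 (−0.09 to 0.02), with 0.29 on the shoulder and −0.52 on the floor, between T096 (0.69) and T099 (0.60) and T109 (−0.77) and T108 (−0.68). The thymidine and colcemid comparisons share libraries with this one.

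After siHJURP, CENP-A on the shoulder was higher against the domains, and H3K9me3 and H3K36me2 on the members were lower. CENP-A on the shoulder minus the domains was higher by 1.42 (1.35 to 1.49) than in siControl cells and on the floor by 0.16 (−0.01 to 0.34). It was over 2-fold higher on 10 of 16 members, 9 of them the whole shoulder, beside 19.7% of carried codes (12 of 61). T095 went from 213 to 2913 reads with a change of 1.86 ± 0.10 (counting SE) against the domains, T096 from 218 to 2855 with 1.80, T097 changed by 1.13 and T110 by −0.38. H3K9me3 on the members differed by −0.98 (−1.04 to −0.92), and 7 of 16, all in the shoulder, passed 2-fold beside 23%. T098 (−1.64) and T101 (−1.52) were lowest, and T104 (−0.54) and T110 (−0.55) changed least. H3K36me2 differed by −1.27 (−1.29 to −1.24), past 2-fold on 13 of 16 members beside 42.6%, with T109 at −2.14, T108 at −1.80, T097 at −0.94 and T100 at −0.78.

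Measured over NCU reads, most of the difference in the marks lay on the side of the domains. After siHJURP, H3K9me3 over NCU was 0.15 (0.11 to 0.19) on the members and 1.13 (1.08 to 1.18) on the domains, and H3K36me2 was −0.17 and 1.10. For CENP-A it was the reverse, with 1.37 (1.28 to 1.46) on the shoulder, 0.11 (−0.07 to 0.29) on the floor and −0.05 (−0.10 to 0.01) on the domains. These values are shares of the reads of a library and not amounts per cell, so a change in total CENP-A does not appear in them.

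After siKAT7 the values on the shoulder had the same signs. CENP-A on the shoulder minus the domains was higher by 1.22 (1.05 to 1.39) than in siControl cells, with 8 of 16 members over 2-fold higher, all in the shoulder, beside 16.4% of carried codes. No member had 100 CENP-A reads in both libraries, and the floor, at −0.52 (−1.35 to 0.31), was not measurable at this depth. H3K9me3 on the members differed by −0.74 (−0.79 to −0.68), past 2-fold on 4 members beside 11.5%, with T098 (−1.35) and T096 (−1.22) lowest and T104 (−0.12) and T105 (−0.42) changing least. H3K36me2 differed by −0.99 (−1.03 to −0.95), past 2-fold on 9 members beside 26.2%, with T109 (−1.67) and T095 (−1.36) lowest and T101 (−0.45) and T102 (−0.55) changing least. Over NCU the members were at 0.05 and the domains at 0.79 for H3K9me3, and at 0.10 and 1.09 for H3K36me2. Minus the domains, H4K20me1 on the shoulder was higher by 0.77 after siKAT7 and by 0.99 after siHJURP, beside 0.20 and 0.45 on the floor. Over NCU the shoulder was at −2.27 in siControl, −1.61 in siKAT7 and −2.27 in siHJURP cells. The floor was at −3.33, −3.25 and −3.88 and the domains at −0.88, −0.99 and −1.87 in that order. After siHJURP the floor and the domains were thus lower over NCU, and the shoulder was not higher.

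The siControl cells differed from untreated cells by repeated transfection with a control siRNA, with replating in between. The untreated libraries also chose the codes. With these limits, the same differences between siControl and untreated cells give a scale for change between libraries. They were −0.18 (−0.27 to −0.09) for CENP-A on the members, −0.10 on the shoulder, 0.06 (−0.20 to 0.32) for H3K9me3 and −0.16 (−0.32 to 0.00) for H3K36me2. Single codes moved more, with CENP-A on T099 at −0.77, T100 at −0.56, T097 at 0.45 and T094 at 0.29, and H3K36me2 on T107 at −0.99 and T106 at −0.72, the only members with 100 H3K36me2 reads in both. In this comparison 0 members were over 2-fold higher in CENP-A beside 1.64% of carried codes and 1 was lower beside 3.28%. The CENP-A changes on the shoulder after siKAT7, after siHJURP and from thymidine to colcemid were larger than this scale. It is 1 pair of libraries and no estimate of spread. From thymidine to colcemid the shoulder did not pass it in H3K4me2 (−0.07 against −0.34) or H4K20me1 (−0.02 against −0.03). On the floor the scale was −0.28 for CENP-A, −0.43 for H3K36me2 and −0.43 for H4K20me1.

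The mean of the 6 marks on the shoulder minus the domains also holds copy number. It was −0.21, −0.06, 0.27, −0.44, −0.27, −0.46 and −0.26 in untreated, thymidine, colcemid, released, siControl, siKAT7 and siHJURP cells. CENP-A minus this mean was −1.83, −0.60, −2.36, −1.59, −1.87, −0.45 and −0.46. The thymidine, siKAT7 and siHJURP libraries thus lay apart in CENP-A also relative to the marks. The mean of the marks ran from −0.46 to −0.06 in these conditions and from −0.44 to 0.27 in the others. The part of copy number in these values was not tested.

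H3K14ac, the mark set by KAT7, was the least even along the run. The SD over the 61 carried codes of a library's log2 shares around the medians of the other conditions was 0.84 to 2.85 on the log2 scale in the H3K14ac libraries against 0.39 to 0.69 for CENP-A and 0.23 to 0.67 for H3K9me3. T100 had 33 H3K14ac reads in untreated, 26 in siControl, 14 in released and 18 in siKAT7 cells but 353 in thymidine, 383 in colcemid and 476 in siHJURP cells. T110 had 5 in colcemid cells and 494 to 3219 in the others, and 7 members had 11 to 28 in released cells, where T105 had 5473. Members with few and with many reads lay side by side in 1 library, so the H3K14ac mean is not a level shared by the codes. In untreated cells 16.4% of CenU reads of the H3K14ac library were on codes not carried, against a median of 1.07% over the 49 libraries. The part of these features in the H3K14ac values was not tested.

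In other HAC lines most codes of the run were under the minimum share, while in HAC 1-8 all were above it. The share of CENP-A reads in these lines holds copy number and CENP-A together, which cannot be told apart without another antibody. HAC 1-8, read to 8471 matched reads, had all 17 codes above the minimum, T103 included, and they took 37.1% of its CenU reads (exact binomial interval 35.9 to 38.2). Single shares ran from 0.888% (0.678 to 1.14) on T102 to 3.23% (2.82 to 3.67) on T100, with 2.74% (2.36 to 3.15) on T103. The median was 2.09% on the shoulder codes and 2.15% on the floor codes, so the step at T103 seen in HAC 1-20 had no counterpart in these shares. The median of T070 to T083 was 1.42% and that of T111 to T123 was 1.58%, below the 2.16% of the members.

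Only T094 and T095 passed 0.1% of CenU reads in HAC 4-2 (1.38% and 1.82%), HAC 3-6 (0.567% and 0.466%) and HAC 4-49 (1.11% and 0.347%). The other members lay at or under 0.0702% in HAC 4-2, 0.0280% in HAC 3-6 and 0.0939% in HAC 4-49. None of T111 to T123 passed the minimum in these 3 lines. A code may be under it because it was not in the input DNA of the line, was not carried, or is poor in CENP-A, and 1 CENP-A library does not separate these, since T109 in thymidine (0.0244%) and T105 in released cells (0.0649%) were also under it among the CENP-A libraries of HAC 1-20. HAC 4-65, which had the same 7 antibodies and conditions as HAC 1-20, also carried T094 and T095. Its medians on T096 to T110 were 0.0044% to 0.0321%. Which CenU codes were put into the other 3 lines was not examined here. In the study's map of HAC 4-65 the CenU codes end at T096. There T094 had CENP-A levels of −2.34 to −1.51 and H3K9me3 levels of 0.65 to 1.53, and T095 of −2.80 to −1.36 and 0.43 to 1.58, so both codes were low in CENP-A and high in H3K9me3 in 7 of 7 conditions of that line. Their H3K36me2 levels, −0.47 to 0.12 and −0.56 to 0.25, lay on both sides of the median, as they did in HAC 1-20. The members carried by HAC 1-20 had few CENP-A reads in some HAC 4-65 libraries. These were 22 in siControl, 30 in thymidine and 76 in siHJURP cells.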

How the data were processed

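Members, lists and tests were chosen with earlier results of these data known. The authors trimmed reads with cutadapt 4.0, matched them to the position codes with Bowtie and counted them with SAMtools, and the deposited values are raw read counts per code, not normalised. A read share therefore holds copy number, ChIP recovery and amplification. Codes named T were taken as CenU and codes named L as NCU. Unmatched reads, 5.98% to 10.4% of a HAC 1-20 library, were left out. Member reads were 8.39% to 36.4% of CenU reads.

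Groups came from the sample labels. Carried codes had a median share of at least 0.1% of the reads on CenU codes, or on NCU codes. Counts were used as log2(reads + 0.5), with intervals (95%) by the delta method, and shares were given exact binomial (Clopper-Pearson) intervals. A change was counted at 2-fold. All carried members are named, and per comparison, for CENP-A, H3K9me3 and H3K36me2, the 2 highest and the 2 lowest members with at least 100 reads in both libraries. The test was an exact sign-flip permutation over conditions. Alternatives changed the summary over codes, the comparison codes, the members, the minimum share (0.2%), the pseudocount (1) and the libraries. Scripts, tested on simulated data, used Python 3.11, numpy 2.4.6, scipy 1.17.1 and pandas 2.3.3.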

Additional observations from a re-analysis of the deposited data

Results flagged for a closer look

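T103, which was not among the carried codes of HAC 1-20, was taken up because reads appeared on it above the limit that a count of 0 allows. Among the 35 libraries with over 3 reads on it, its highest share was 0.0339% of CenU reads (5 of 14761), in the H4K20me1 library of untreated cells.

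T107 was taken up for the same reason in HAC 4-49, where it took 0.0904% of CenU reads (exact binomial interval 0.0831 to 0.0981, 566 reads) although it fell under the minimum for a carried code and no other code from T098 to T110 reached 0.02% there. The source of these reads was not tested.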

How the results depend on the processing

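No paired analysis was possible because each group had 1 library and the labels gave no replicate numbers, so the exact test paired the marks by condition and not by replicate. Of the alternative values of the main results, 160 kept their size or their side of the threshold and 48 moved, and 8 counts of pairs no longer passed. Leaving out T100, counting T001 with T070 to T083 (12 pairs of marks passed), treating the shoulder and the floor apart and leaving out the 3 most scattered H3K14ac libraries were chosen after the data were seen. Depth is smallest in H3K9me3 of untreated cells, with 464 member reads, in CENP-A of siKAT7 cells (540) and in H3K36me2 of untreated cells (1083), and nothing here measures the spread between cultures or ChIP reactions.

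The mean over treated conditions of members minus domains in CENP-A, −2.38, was −1.89 as a median over codes, −1.75 from summed reads, −2.91 on T097 to T109, −1.81 against all other carried codes, −1.43 on the shoulder and −4.14 on the floor. For H3K9me3, 1.06 became 1.47 as a median over codes and 0.52 against all other carried codes. On the floor alone H4K8ac was −1.21 and H4K20me1 −2.54. The number of pairs of marks past the exact test, 11, was 0 with T111 to T123 alone (9 with an unadjusted p under 0.05, lowest adjusted p 0.0521), 0 without the 3 scattered H3K14ac libraries (9 and 0.0521), and 0 to 0 when each condition was left out in turn, where 0 had an unadjusted p under 0.05 because the smallest p is then 0.0625, so these say nothing of stability. No pair of marks changed sign in its mean under any alternative.

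Against T070 to T083 alone, H3K9me3 changed by 0.24 from thymidine to colcemid, −0.37 from colcemid to release, −0.13 from thymidine to release, −0.66 after siKAT7 and −0.92 after siHJURP, and against T111 to T123 alone by 0.68, −0.62, 0.0558, −0.81 and −1.04. H3K36me2 changed by −0.59 from colcemid to release, 0.56 from thymidine to release and −1.30 after siHJURP against the former, and by −0.37, 0.71 and −1.24 against the latter. As a median over codes H3K9me3 changed by 0.40, −0.69 and −0.29 over the 3 cell cycle comparisons and H3K36me2 by 1.28, −0.40 and 0.88, and by −1.11 after siKAT7 and −1.51 after siHJURP. From summed reads H3K9me3 changed by 0.25 from thymidine to colcemid, −0.30 from colcemid to release, −0.42 after siKAT7 and −0.57 after siHJURP, and H3K36me2 by 0.98, −0.36, −0.94 and −1.18. On T097 to T109 H3K9me3 changed by −0.60 from colcemid to release, −0.18 from thymidine to release and −0.68 after siKAT7, and H3K36me2 by 1.16 from thymidine to colcemid, −0.52 from colcemid to release and −0.90 after siKAT7.

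Signs turned in 10 values. H4K8ac from thymidine to colcemid was −0.0625 against T070 to T083 alone, from colcemid to release 0.29 as a median and 0.0814 from summed reads, and from thymidine to release 0.31 and 0.11. CENP-A from colcemid to release was 0.12 as a median, and H3K14ac from thymidine to release 0.45 as a median and 0.0684 from summed reads. The members over all CenU reads in place of NCU reads were at 0.14 for H3K9me3 and 0.42 for H3K36me2 from thymidine to colcemid. The cause was not tested.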
